A study of Rattus norvegicus with 17 samples.

Results

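The Zfp genes are the zinc finger genes whose symbol is Zfp followed only by a number. They were chosen by symbol and by level: 209 of the 248 such symbols in the table of 34322 genes had a mean of 5 or more CPM (counts scaled to the same total in each library) over all 17 libraries. Mean CPM is therefore a selection value and is given only as a description. Stranded mRNA libraries were sequenced from hippocampi of Long-Evans rats in adolescence, at 36 to 38 days. The 5 ET rats came from a dam that drank a liquid diet with 6.7% ethanol from gestational day 0 to 20, the 6 PF rats from a pair-fed dam on the liquid diet without ethanol, and the 6 AD rats from a dam with free access to chow. Each diet was 1 litter, so diet and litter cannot be told apart, and p-values measure the spread between littermates.

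Zinc finger proteins of the C2H2 kind read DNA through an array of small zinc-holding loops, and arrays that differ in a few contact residues read different sequences. Many of them also carry a KRAB domain, which binds the corepressor Trim28 and through it the histone methyltransferase Setdb1, and such proteins are known for silencing retroelements. These genes often stand in clusters of related copies. The symbol also covers proteins with other tasks, among them RNA binding, ubiquitin and SUMO transfer and ribosome assembly.

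The total was 10853947 to 17498392 counts per library. All 7 hippocampal markers had counts in every library, with summed levels from 2290 to 3224 CPM. Of the 17 libraries, 3 (ET replicate 2, PF animal 11f6 and AD replicate 4) held 9678 to 11058 CPM of choroid plexus markers against 210 to 1760 CPM in the others. The fits below leave them out, as the study's final analysis did, which left 4 ET, 5 PF and 5 AD samples. The Y-linked counts of AD replicates 1 and 2 went against their sex labels. Ribosomal RNA reads also differed by diet, since Rn18s stood at 22.1 to 47.9 CPM in the PF libraries and was listed at 0 in all others.

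Promoter sequences are shown for the 4 Zfp genes with the clearest difference between libraries in the values that follow: Zfp458, Zfp40, Zfp526 and Zfp57. Each is the 250 bases before an annotated start, from RefSeq on GRCr8, which is not the assembly of the counts. The windows are chr2:86401264-86401513 on the plus strand for Zfp458, chr1:71658767-71659016 on the minus strand for Zfp40, chr1:89935354-89935603 on the plus strand for Zfp526, and chr20:1534919-1535168 on the minus strand for Zfp57. Capitals mark matches, on either strand, to the letters of the 7 short motifs searched. These were the GC box GGGCGG, the cAMP response element TGACGTCA, the ETS core CCGGAAGT, ACTACAATT for ZNF143, AAGATGGC for YY1, GCATGCGC for NRF1 and the TATA box TATAAA.
Zfp458: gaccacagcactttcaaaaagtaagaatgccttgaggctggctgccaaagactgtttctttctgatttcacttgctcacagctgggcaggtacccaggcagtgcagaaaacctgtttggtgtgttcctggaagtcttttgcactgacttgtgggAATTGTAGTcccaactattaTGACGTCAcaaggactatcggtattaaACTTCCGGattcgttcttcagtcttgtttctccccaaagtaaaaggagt
Zfp40: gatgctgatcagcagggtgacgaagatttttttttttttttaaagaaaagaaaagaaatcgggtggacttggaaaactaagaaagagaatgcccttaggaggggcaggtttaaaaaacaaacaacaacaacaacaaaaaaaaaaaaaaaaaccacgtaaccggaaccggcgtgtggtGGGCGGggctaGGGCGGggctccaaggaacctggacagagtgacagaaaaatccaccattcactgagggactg
Zfp526: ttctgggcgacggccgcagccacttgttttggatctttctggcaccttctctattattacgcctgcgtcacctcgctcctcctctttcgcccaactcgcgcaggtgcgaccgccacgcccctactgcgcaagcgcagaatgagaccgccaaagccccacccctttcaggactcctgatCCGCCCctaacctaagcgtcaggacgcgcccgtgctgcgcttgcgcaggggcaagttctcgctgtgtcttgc
Zfp57: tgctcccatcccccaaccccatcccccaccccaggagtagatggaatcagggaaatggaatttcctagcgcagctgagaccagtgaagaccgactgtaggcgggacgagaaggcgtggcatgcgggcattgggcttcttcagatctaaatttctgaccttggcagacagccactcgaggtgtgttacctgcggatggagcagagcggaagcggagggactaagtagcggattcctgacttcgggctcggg
The Zfp458 window held 1 match each to the letters for ZNF143, the cAMP response element and the ETS core. The Zfp40 window held 2 GC boxes, the Zfp526 window 1, and the Zfp57 window had none of the motif letters. RefSeq gives Zfp458 and Zfp526 further starts downstream, which are not shown. Over windows of 300 bases (250 before the start and 50 after), a full window was found for 174 of the 209 Zfp genes. The ZNF143 letters were in 2.3% of the Zfp genes (4 of 174) and 0.433% of all 27456 symbols with a window. Unlike the Zfp genes, these symbols were not chosen by level. The ETS letters were in 9.2% against 4.2%, the NRF1 letters in 6.9% against 2.77%, the YY1 letters in 6.9% against 3.62%, the cAMP response element in 2.87% against 2%, and the GC box in 48.3% against 36%. The TATA box letters were in fewer Zfp genes, 10.9% against 15.3%. The median GC content of 1 window per symbol was 57.7% for the Zfp genes and 52.3% for all symbols. A match to such letters is a description of the window and does not show that a factor binds there.

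The 209 Zfp genes together held 0.628% of all counts, with a sum of 5807 to 6477 CPM per library. Their mean CPM had a median of 18.5, with 44 genes between 5 and 10, 133 between 10 and 50 and 32 at 50 or more. CPM is not divided by transcript length, so it orders the genes by counted fragments and not by transcript number. The most fragments were counted on Zfp106 at 453 CPM, Zfp365 at 241 CPM and Zfp91 at 206 CPM. The symbols just inside the limit were Zfp622 (5.36 CPM), Zfp939 (5.21 CPM) and Zfp51 (5.06 CPM), and those just outside were Zfp583 (4.96 CPM), Zfp28 (4.73 CPM) and Zfp707 (4.57 CPM). The smallest count of any of the 209 genes in any library was 43.

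Most Zfp genes varied little. The median SD within diets was 0.11 on the log2(CPM + 1) scale, against 0.13 over the 12231 genes of the table with a mean of 5 or more CPM. The highest library exceeded the lowest at least 2-fold in 9 Zfp genes (4.31%), and in 13.3% of those 12231 genes. The 2 lowest sums were in ET replicate 1 (5807 CPM) and AD replicate 6 (6061 CPM), and these were also the 2 lowest libraries of 34 Zfp genes (16.3%), against 9.69% of the 12231 genes. The same pair had the lowest summed hippocampal markers, at 2290 and 2555 CPM, with PF replicate 2 close by at 2589 CPM. Of the markers, Prox1 (8.4 and 18.6 CPM), Zbtb20, Fibcd1 and Neurod6 were lowest in this pair. C1ql2, Wfs1 and Slc17a7 were not: C1ql2 was lowest in PF animal 11f5 at 18.6 CPM, against 19.8 and 25.2 CPM in the pair. The part of hippocampal marker content in the Zfp levels was not tested.

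To find genes with 2 separated levels, libraries were ordered by log2(CPM + 1) and the widest gap that left at least 2 libraries on each side was taken. A gene counted as separated when that gap was at least 1 and wider than the range on either side. Of the 209 Zfp genes, 1 (0.478%) met this, Zfp458. Over the 12231 genes 94 did, or 0.769%. Zfp458 had been named in the choice of genes for its 2 levels, so its share is a description and no result about the Zfp genes. Of those 94 genes, 55 had exactly the 6 PF libraries high, 25 had the 3 choroid plexus-rich libraries high, and 5 followed the Y-linked counts. The median gap was 0.07 for the Zfp genes and 0.08 for all 12231. After Zfp458 (1.60) came Zfp526 (0.88) and Zfp40 (0.80), and the next gap was 0.34.

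**Figure D1:**
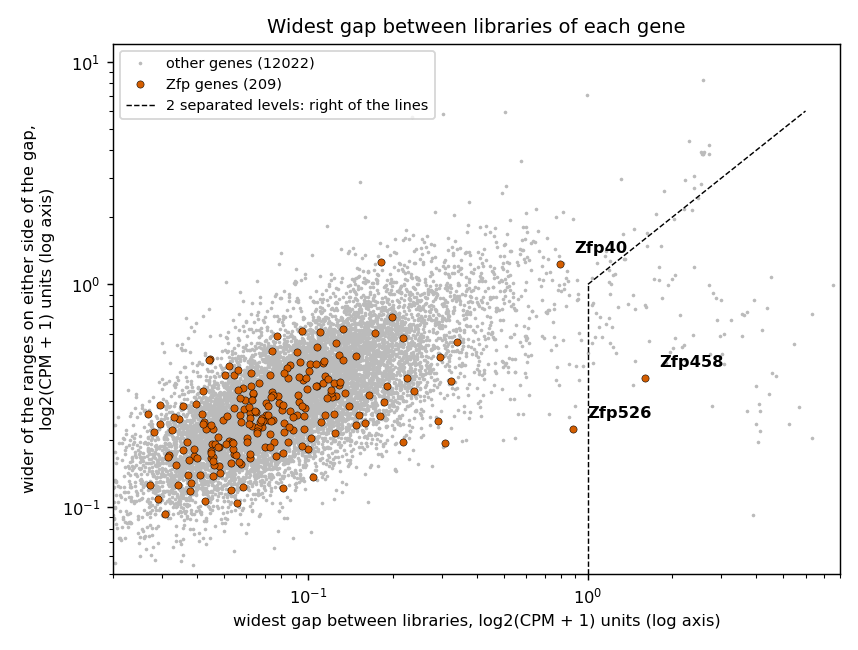
Each point is 1 gene with a mean of 5 or more CPM (209 Zfp genes in orange, other genes in grey). The horizontal axis is the widest gap between libraries and the vertical axis is the wider of the ranges on its 2 sides, both in log2(CPM + 1) units on log axes. Only Zfp458 among the Zfp genes lies to the right of the dashed lines, Zfp526 stops short of a gap of 1, and Zfp40 has a range wider than its gap.

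Zfp458, a KRAB zinc finger gene that lies beside Rsl1, had 2 levels that crossed the diets. In ET, replicates 1, 2, 4 and 5 were at 26.2, 30.2, 31.3 and 29.8 CPM, and replicate 3 was at 7.96 CPM. The 6 PF libraries ranged from 5.88 to 7.32 CPM with a median of 6.71. In AD, replicates 3 and 4 were at 32.7 and 28.8 CPM, and replicates 1, 2, 5 and 6 were at 6.34, 7.33, 6.30 and 6.93 CPM. The high level was thus present in 4 of 5 ET, 0 of 6 PF and 2 of 6 AD libraries, and no library lay between 7.96 and 26.2 CPM.

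The 6 high libraries had a mean of 29.8 ± 2.23 CPM (SD) and the 11 low libraries 6.78 ± 0.624 CPM, a ratio of 4.4. The raw counts were 328 to 439.7 in the high libraries and 72 to 128.3 in the low ones. By label, the high libraries were from 2 females and 4 males, and 2 of them were right hippocampi, of 4 right hippocampi in all. Of the 3 choroid plexus-rich libraries, ET replicate 2 and AD replicate 4 were high and PF animal 11f6 was low at 5.88 CPM. No other gene of the 12231 had its widest gap between the same libraries.

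The genes annotated at this locus did not have the full split. Zfp455, which overlaps Zfp458, ranged from 3.02 to 4.75 CPM over all libraries, and LOC108349973, which also overlaps it, from 0.439 to 1.11 CPM, which rests on a few reads. Rsl1, a KRAB zinc finger gene known as a regulator of sex-limited liver genes, ranged from 2.99 to 6.77 CPM. Its 3 highest libraries, at 6.48 to 6.77 CPM, were ET replicate 5 and AD replicates 3 and 4, all of them high for Zfp458. The next was ET replicate 1, also high for Zfp458, at 4.56 CPM, and the other libraries were at no more than 4.11 CPM. However, ET replicates 2 and 4, also high for Zfp458, were at 3.56 and 3.61 CPM. These are related genes, and whether reads were lost or split between copies at this locus was not tested.

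Zfp40 was lowest in PF and spread over a wide range elsewhere. The 6 PF libraries ranged from 16.8 to 21.8 CPM with a median of 19.9. The 5 ET libraries were at 38.5, 51.5, 59.5, 91.9 and 48.8 CPM in replicate order. The AD libraries ranged from 38.9 to 74.1 CPM with a median of 41.5, of which replicates 3 and 5 stood at 69.7 and 74.1 CPM and the other 4 at 38.9 to 42.2 CPM. All 11 ET and AD libraries thus lay above all 6 PF libraries. Zfp40 did not have 2 compact levels, since the libraries above the gap spanned 1.23 log2 units against a gap of 0.80. Zfp945, its zinc finger neighbour, was at 12.3 to 13.3 CPM in ET, 13.8 to 15.4 CPM in PF and 10.7 to 14 CPM in AD. Its PF libraries thus lay above all ET libraries, the opposite order to Zfp40, with a log2 fold change of -0.18 in ET against PF (adjusted p = 0.246, edgeR). Vom2r80, which overlaps Zfp40, was at no more than 0.484 CPM, which is a few reads.

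**Figure D2:**
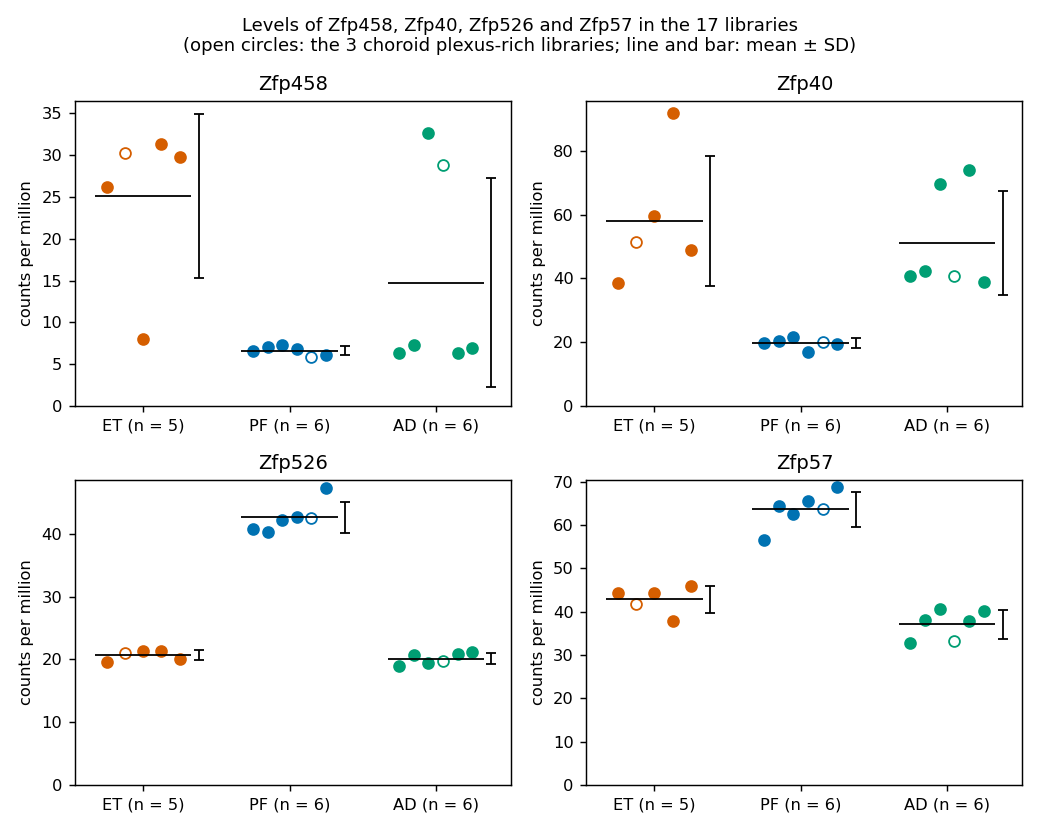
CPM of Zfp458, Zfp40, Zfp526 and Zfp57 in each library by diet (5 ET, 6 PF and 6 AD; open circles are the 3 choroid plexus-rich libraries), with the mean as a line and the SD as a bar. Zfp458 has libraries at 2 levels within ET and within AD, and the other 3 genes separate the 6 PF libraries from all others.

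ET rats were compared with PF rats to set the ethanol diet against a liquid diet of the same amount. The Zfp genes as a whole lay close to 0 in this comparison: the median log2 fold change was -0.02 over the 209 genes and 0.01 over all 16068 genes tested, and 203 Zfp genes (97.1%) were within 0.25 of 0, as were 83.1% of all genes. The genes tested, here and in the other comparisons, include genes below 5 CPM, which the Zfp genes do not. The shares therefore come from sets of unlike level, and the part of level in them was not tested. Only 5 Zfp genes passed an adjusted p-value of 0.05 (edgeR's quasi-likelihood test), 2 higher and 3 lower in ET. Over all genes tested, 0.541% were higher and 3.59% lower at this threshold, and the Zfp genes had 0.957% and 1.44%. At the study's threshold (adjusted p under 0.01 and a log2 fold change beyond 1.5 in either direction), 2 Zfp genes were higher and 0 were lower, where 0.0373% of all genes were higher and 2.13% lower. DESeq2 gave the same counts of 2 and 0. The 2 higher genes at these thresholds had been named by the choice of genes for their levels. These counts of higher genes are therefore a description and no result about the Zfp genes. At an unadjusted p below 0.05, edgeR had 4 Zfp genes higher (1.91%) and 10 lower (4.78%), where 4.72% of all genes were higher and 7.21% lower, and DESeq2 had 4 higher and 7 lower, with 4.05% and 6.37% of all genes.

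The 2 higher genes were Zfp40 and Zfp458, which the choice of genes had named for their levels, so their differences are given as a description. The log2 fold change was 1.61 ± 0.22 (SE) for Zfp40 and 1.81 ± 0.32 for Zfp458. For Zfp458 this averages 3 high ET libraries and 1 low ET library of the final samples against 5 low PF libraries. Without ET replicate 4, the highest library for Zfp40, neither of them passed the study's threshold, and without any other 1 of the 9 samples except ET replicate 3, Zfp40 passed it and Zfp458 did not.

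Of the lower genes, Zfp526 had the smallest adjusted p. The ET libraries were at 19.6, 21.1, 21.3, 21.4 and 20.1 CPM, and the PF libraries ranged from 40.3 to 47.2 CPM with a median of 42.4. No ET library came near the PF range, and the AD libraries, at 19 to 21.2 CPM, lay with ET. The log2 fold change was -1.04 ± 0.07 (adjusted p = 5.02e-06, edgeR), lower in 4 of 4 ET samples than in every PF sample. Gsk3a, a kinase gene that overlaps Zfp526 in the annotation, was at 148 to 172 CPM in PF and 130 to 164 CPM in ET, and its log2 fold change of -0.14 had an adjusted p of 0.38 (edgeR). Every PF library of Gsk3a lay above the AD range of 130 to 148 CPM, with a log2 fold change of 0.15 in PF against AD (adjusted p = 0.0504, edgeR). Dedd2, on the other side of Zfp526, was at 33.8 to 40.5 CPM in PF and 34.4 to 37.8 CPM in ET.

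Zfp57 encodes a KRAB zinc finger protein that keeps DNA methylation at imprinted genes. The ET libraries were at 44.4, 41.7, 44.4, 37.8 and 46 CPM, the PF libraries at 56.7 to 68.7 CPM with a median of 64.2, and the AD libraries at 32.8 to 40.6 CPM. The PF libraries again lay above all others. The log2 fold change in ET against PF was -0.55 ± 0.08 (adjusted p = 0.00124, edgeR). Mog, a myelin gene that overlaps Zfp57 in the annotation, was at 80.6 to 107 CPM in ET and 80.8 to 107 CPM in PF, so its ranges overlapped almost fully.

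Zfp952 was at 10.1 to 12.4 CPM in ET and 12.2 to 15.6 CPM in PF. The diets met at the edge of their ranges in PF animal 11f6, at 12.2 CPM, which was not among the fitted samples. The log2 fold change was -0.35 ± 0.08 (adjusted p = 0.0375, edgeR), and the call was lost when any 1 of the 9 samples was left out, with adjusted p-values from 0.0559 to 0.103 (edgeR). Over all 17 libraries, 2 Zfp genes (0.957%), Zfp526 and Zfp57, had every PF library above all others, as did 1.58% of the 12231 genes. Only 1 (0.478%), Zfp40, had every PF library below all others, as did 0.139%. Zfp40 was named beforehand for its levels, so its share is a description. The PF libraries were also those with Rn18s reads, whose part in these differences was not tested.

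**Figure D3:**
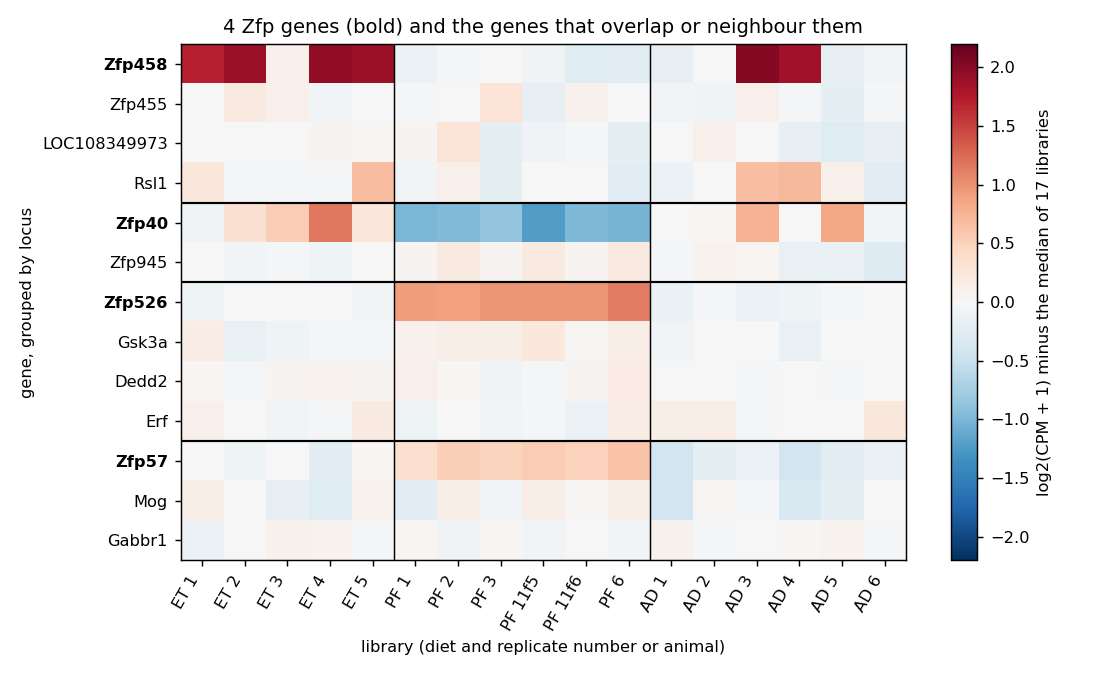
log2(CPM + 1) minus the median of the 17 libraries (colour) for Zfp458, Zfp40, Zfp526 and Zfp57, in bold, and for genes that overlap or neighbour them, in each library (columns, by diet). Zfp458 is high in 6 libraries, Rsl1 is higher in 3 of them, and the PF libraries stand out less for the neighbours of Zfp526 and Zfp57 than for these genes.

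In PF against AD, the comparison of the controls with each other, 7 Zfp genes passed an adjusted p-value of 0.05 (edgeR), 4 higher (1.91%) and 3 lower (1.44%) in PF. Of all 15960 genes tested, 4.32% were higher and 0.846% lower. At the study's threshold 0 Zfp genes passed with edgeR and 0 with DESeq2, where 2.02% of all genes were higher and 0.0251% lower. At an unadjusted p below 0.05, 17 Zfp genes were higher (8.13%) and 7 lower (3.35%) with edgeR, below the 9.66% and 6.77% of all genes, and 16 and 7 with DESeq2, with 8.63% and 5.66% of all genes. The median log2 fold change of the Zfp genes was 0.02, against -0.00287 over all genes, and 196 of 209 (93.8%) were within 0.25 of 0, as were 84% of all genes. This comparison and ET against PF use the same PF samples, so a gene that stands apart in PF appears in both. Without PF replicate 6 there were 8 higher (3.83%) and 6 lower (2.87%) Zfp genes at an adjusted p of 0.05 (edgeR), where the shares of all genes also rose, to 5.4% and 1.9%. Without AD replicate 1, 2 or 6 Zfp40 passed the study's threshold.

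The higher genes in PF were Zfp526, Zfp57, Zfp952 and Zfp142. The log2 fold change was 1.07 ± 0.06 for Zfp526 (adjusted p = 1.75e-07, edgeR) and 0.74 ± 0.07 for Zfp57 (adjusted p = 1.29e-05, edgeR). For Zfp952 it was 0.38 ± 0.07 (adjusted p = 0.00444, edgeR), with AD libraries at 9.92 to 11.9 CPM, all below the lowest PF library. Zfp142, whose human counterpart is linked to a neurodevelopmental disorder, was at 55.2 to 61.9 CPM in PF and 49.2 to 55.3 CPM in AD, and the ranges overlapped at their edge. Its log2 fold change of 0.18 ± 0.05 had an adjusted p of 0.0491 (edgeR), and 3 of the 10 fits that left out 1 sample kept it below 0.05.

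The lower genes in PF were Zfp40, Zfp180 and Zfp853. For Zfp40 the log2 fold change was -1.44 ± 0.19, given as a description, as is its place in the count of lower genes. Zfp180, a KRAB zinc finger gene, was at 105 to 127 CPM in PF and 136 to 163 CPM in AD, with no overlap, and ET, at 113 to 144 CPM, overlapped both. Its log2 fold change was -0.36 ± 0.06 (adjusted p = 0.00315, edgeR). Zfp853 was at 14.6 to 17.1 CPM in PF and 17.7 to 20.4 CPM in AD, and its log2 fold change was -0.26 ± 0.06 (adjusted p = 0.0272, edgeR), with 3 of 10 fits that left out 1 sample keeping the call. For Zfp458 the log2 fold change, also a description, was -0.82 ± 0.46, and 1 of the 5 fitted AD libraries was high. Of the 8 Zfp genes called in any diet comparison, 7 overlap another gene in the GRCr8 annotation, as do 86 of the 207 Zfp genes (41.6%) that matched it by symbol. Overlaps were taken on either strand and at any level of the other gene. Zfp40 and Zfp458 are among the 8, and the share over all called genes was not taken. The part of overlap in the calls was not tested.

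ET was next compared with AD, which differs in the form of the diet as well as in ethanol. In this comparison 0 of the 209 Zfp genes passed an adjusted p-value of 0.05 with edgeR and 0 with DESeq2. At an unadjusted p below 0.05, edgeR had 2 higher (0.957%) and 5 lower (2.39%), where 1.59% of all genes were higher and 1.15% lower. DESeq2 had 1 higher and 4 lower, with 1.15% and 0.87% of all genes. Of all 15749 genes tested, 0% were higher and 0.0127% lower at the adjusted p-value of 0.05, and 0.0127% passed the study's threshold in either direction. The median log2 fold change was 0.000806 over the Zfp genes and 0.0028 over all genes, and 205 Zfp genes (98.1%) were within 0.25 of 0, as were 91.8% of all genes.

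The 4 Zfp genes with the smallest p in ET against AD were Zfp61, Zfp180, Zfp94 and Zfp365, each with an adjusted p of 1 (edgeR). Zfp61 was at 11.3 to 14.5 CPM in ET and 13.8 to 17.2 CPM in AD, a log2 difference of -0.33 ± 0.09. Zfp94, its neighbour in the annotation, was at 6.58 to 6.98 CPM in ET and 6.83 to 9.89 CPM in AD, a log2 difference of -0.35 ± 0.11. Zfp365, a gene known for its role in neurite growth, was at 182 to 255 CPM in ET and 201 to 288 CPM in AD, so that the ranges overlapped over most of their width, and the log2 difference was -0.24 ± 0.10. Zfp180 differed by -0.25 ± 0.07 on the log2 scale. For Zfp458 the difference was 0.99 ± 0.55, with 3 of 4 fitted ET libraries and 1 of 5 fitted AD libraries at the high level.

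**Figure D4:**
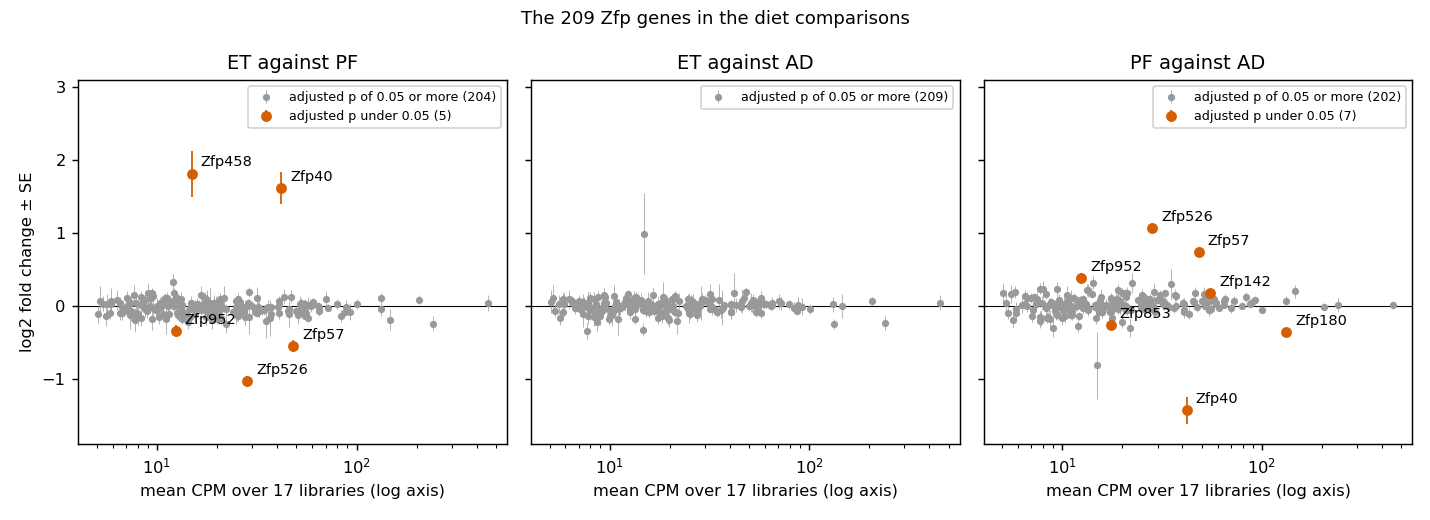
log2 fold change with its SE of each of the 209 Zfp genes (points) against the mean CPM over 17 libraries (log axis) in ET against PF, ET against AD and PF against AD. Genes with an adjusted p under 0.05 (edgeR) are orange and named: 5, 0 and 7 of 209, and most other genes lie within 0.25 of 0.

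By role, 21 of 25 listed genes were among the 209, and 1 of the 21, Zfp57, passed an adjusted p-value of 0.05 (edgeR) in a diet comparison. With 0.541% of all genes higher and 3.59% lower in ET against PF, and 4.32% and 0.846% in PF against AD, counts of 0 or 1 in lists of this size, here and for the corepressors, are near the background and are no result about a list. Zfp36, which binds AU-rich mRNA and triggers its decay, fell below the limit at 4.27 CPM. Of the RNA-binding proteins, Zfp106, needed by motor neurons, was at 382 to 553 CPM in ET, 429 to 492 CPM in PF and 438 to 467 CPM in AD. Zfp326, which couples transcription to splicing, had medians of 24.9, 26.7 and 24.7 CPM in ET, PF and AD. The medians of Zfp346, which binds double-stranded RNA, were 36.3, 37.9 and 37.1 CPM. For Zfp638, which takes part in splicing and in silencing of foreign DNA, they were 104, 100 and 101 CPM. None of these 4 genes was called in any of the 3 comparisons, and their diets overlapped.

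None of the 4 genes of the ubiquitin, SUMO and ribosome list was called (edgeR), which is near the background of 0.541% higher and 3.59% lower in ET against PF. Zfp91, a ubiquitin ligase, had medians of 218 CPM in ET, 203 in PF and 201 in AD. Zfp451, a SUMO ligase, had 63.3, 67.6 and 64 CPM, and Zfp598, the ubiquitin ligase that marks collided ribosomes, had 31.5, 32.5 and 30.5 CPM. Zfp622, a factor in assembly of the large ribosomal subunit, had 5.39, 5.39 and 5.63 CPM. The ranges of the diets overlapped for each of the 4 genes.

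Of the 11 genes of neural development and transcription, 0 were called (edgeR), again near the background of 0.541% and 3.59% in ET against PF and 4.32% and 0.846% in PF against AD. Apart from Zfp57, the log2 fold changes of the listed genes ran from -0.25 to 0.13 in ET against PF, from -0.24 to 0.14 in ET against AD and from -0.31 to 0.18 in PF against AD. Zfp335, in which loss of function causes microcephaly, was at 49.3 to 58 CPM in ET and 58 to 65 CPM in PF, with the smallest adjusted p of them in ET against PF and a log2 difference of -0.17 ± 0.06 (adjusted p = 0.209, edgeR). Zfp24, required for myelination, had medians of 53.4, 51.4 and 50.8 CPM in ET, PF and AD. Zfp521, which promotes neural fate, spread from 11.5 to 24.7 CPM within ET alone, and Zfp703 from 16.2 to 28.9 CPM. Zfp711, an X-linked gene tied to intellectual disability, was at 7.46 to 13 CPM over all libraries.

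Imprinting and retroelement silencing was represented only by Zfp57 and Zfp445, which act together at imprinted genes. Zfp568, Zfp809 and Zfp932, the rest of the 5 listed genes, were not in the table. Zfp445 had medians of 90.9, 89.5 and 89.6 CPM in ET, PF and AD, and its log2 fold change was -0.02 ± 0.10 in ET against PF and 0.04 ± 0.08 in PF against AD, so the difference seen for Zfp57 was not seen for it. The 17 genes of the KRAB corepressor machinery had 0 calls in each diet comparison (edgeR), where 0.541% and 3.59% of all genes were called in ET against PF and 4.32% and 0.846% in PF against AD. They had log2 fold changes from -0.23 to 0.11 in ET against PF and from -0.19 to 0.20 in PF against AD. Trim28 had medians of 99.4, 95.8 and 96.5 CPM in ET, PF and AD, and Setdb1 had 40.5, 43.8 and 40.7 CPM. The smallest adjusted p among them was 0.157 (edgeR), for Smarcad1, a chromatin remodeller, in PF against AD.

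**Figure D5:**
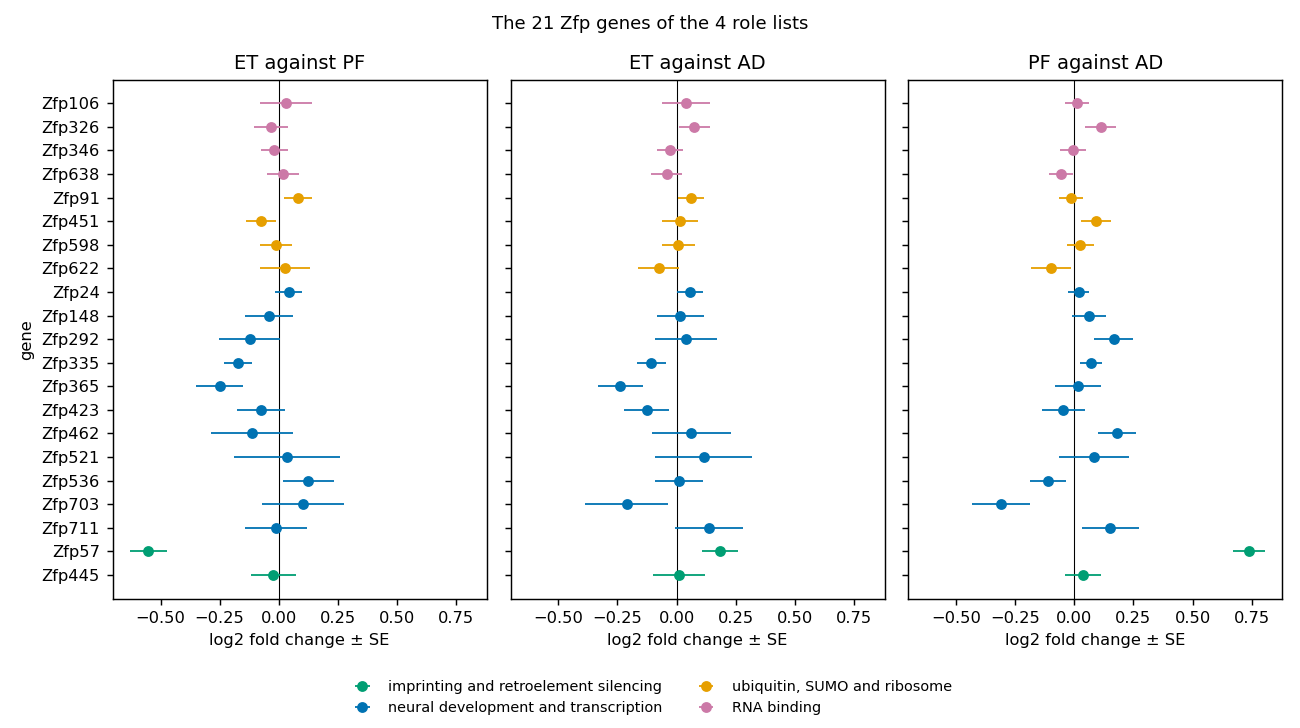
log2 fold change with its SE of the 21 Zfp genes of the 4 role lists in ET against PF, ET against AD and PF against AD, coloured by list. Zfp57 stands at -0.55 and 0.74 in the comparisons with PF, and the other genes lie between -0.31 and 0.18.

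Males were compared with females over the final ET and PF samples with diet in the model. The number of Zfp genes with an adjusted p below 0.05 was 0 with edgeR and 0 with DESeq2, and 0.0311% of the 16068 genes tested were higher and 0.0124% lower in males. At an unadjusted p below 0.05 there were 3 higher (1.44%) and 1 lower (0.478%) Zfp genes with edgeR, near the 0.878% and 0.996% of all genes, and 1 and 1 with DESeq2, with 0.604% and 0.778% of all genes. The log2 difference of males from females was 0.40 ± 0.32 for Zfp458 and 0.16 ± 0.23 for Zfp40. The 53 other zinc finger genes with a mean of 5 or more CPM, named Zbtb, Zscan, Zkscan or Znf, had 0 higher and 2 lower in ET against PF (Zbtb3 and Zscan30, 3.77%) and 0 called in ET against AD (edgeR), near the 3.59% and 0.0127% of all genes lower in those comparisons. In PF against AD, 3 were higher, Zbtb3, Zbtb37 and Zscan30 (5.66%), near the 4.32% of all genes.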

How the data were processed

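RNA was sequenced from 17 rat hippocampi, each with 3 technical replicates. The authors trimmed reads with fastp, mapped them to mRatBN7.2 with Bowtie2 2.4.2 and counted fragments on exons with featureCounts 2.0.1, at a minimum mapping quality of 10, and reads could count for several features, so genes that overlap can share reads. The strand setting and annotation release are not given in the sources used here. The values deposited are fragment counts that the authors averaged over the technical replicates and did not normalize, so they need not be whole, and here they were given the unit of expected counts. Libraries held 10853947 to 17498392 counts, and counting without molecular identifiers limits precision.

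Members and gene lists were chosen with earlier results of these data known. Counts were rounded, filtered with filterByExpr and scaled by TMM, then tested with edgeR 4.0.16 (quasi-likelihood F-test, R 4.3.3), with Benjamini-Hochberg adjustment over all genes tested. All 209 Zfp genes passed the filter in each comparison. The SE is the absolute log2 fold change over the square root of F. Groups came from the sample labels, the final 14 samples from the study. Alternatives were DESeq2 1.42.0, median-of-ratios scaling, no filter, all 17 samples, sums of technical replicates, sex or replicate number in the model, and leaving out each sample. Leaving out the AD samples with mismatched sex labels, or ET replicate 1 with AD replicate 6, was added after the data were seen. The steps were tested on simulated data. Over 40 pairs of samples of 1 diet, the smallest chi-square per gene was 8.64, so no pair of libraries agreed within sampling noise.

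The genes named are Zfp40 and Zfp458, those past an adjusted p of 0.05 in a diet comparison (where fewer than 4 passed, the 4 with the smallest p), those with 2 separated levels, those of highest CPM and nearest the limit, the role lists and annotated neighbours. Neighbours and overlaps come from RefSeq on GRCr8, with 207 of 209 symbols matched. Scripts used Python 3.11.15, numpy 2.4.6, pandas 2.3.3 and matplotlib 3.10.9.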

Additional observations from a re-analysis of the deposited data

Results flagged for a closer look

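For the named Zfp genes and the summed Zfp level, 108 groups of 5 or 6 libraries were examined for a library far from the others of its diet (Dixon's criterion). Chance alone flags about 1 in 20 independent groups, and 9 (8.33%) were flagged. The groups share libraries and hold genes picked from these data, so the flagged share cannot be judged against that rate. Zfp458 in ET replicate 3 was at 7.96 CPM, with the nearest ET library at 26.2 CPM, which restates the levels it was named for. Zfp526 in PF replicate 6 was at 47.2 CPM, above the nearest PF library at 42.6 CPM. Zfp61 was at 11.8 CPM in PF replicate 3 (nearest 14.6 CPM) and at 13.8 CPM in AD replicate 3 (nearest 16 CPM). AD replicate 6 had Zfp292 at 40.5 CPM, below the nearest library at 49 CPM, and Zfp598 at 35 CPM, above the nearest at 31 CPM. Zfp536 in AD replicate 1 was at 37.8 CPM (nearest 43.8 CPM). Zfp638 in ET replicate 1 was at 89.4 CPM (nearest 101 CPM), and Zfp91 in ET replicate 4 was at 205 CPM (nearest 215 CPM).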

How the results depend on the processing

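In ET against PF, the 2 Zfp genes past the study's threshold became 1 with sex as a covariate and 0 with the replicate number as a block, and 0 to 2 when 1 sample was left out. With ET replicate 4 left out 0 remained past it. At an adjusted p of 0.05, the replicate block left 1 higher and 1 lower gene in ET against PF, and 3 higher and 1 lower in PF against AD. Under that block Zfp57 lost its call in ET against PF (log2 fold change -0.42, adjusted p = 0.263, edgeR). Zfp180 lost its call in PF against AD (adjusted p = 0.0577, edgeR). The log2 fold change of Zfp458 in ET against PF under the block, a description, was 1.13. Same-numbered samples are different animals and their deviations correlated between -0.247 and 0.599, so the number does not pair them. For the sexes, no paired analysis was possible because the block and sex could not be fitted together. Leaving out 1 sample gave 2 higher and 2 lower genes in each fit of ET against PF.

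In PF against AD, leaving out 1 sample gave 0 to 1 genes past the study's threshold, 3 to 8 higher and 2 to 6 lower, with 8 and 6 without PF replicate 6. Without the AD libraries with mismatched sex labels 1 gene passed the study's threshold. With the minimum gap lowered to 1.5-fold, 2 Zfp genes had separated levels, Zfp458 and Zfp526. No direction reversed in the alternatives run for the genes called in ET against PF or PF against AD and the 4 of smallest p in ET against AD. The causes were not tested.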

Other observations

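Some Zfp genes outside the named ones had a wide spread within diets and were picked after their values were seen. Zfp704 was at 16.6 CPM in ET replicate 1 and at 31.8 to 48.9 CPM in the other 16 libraries. Zfp831 was at 14.9 CPM in ET replicate 1 and 20.8 CPM in AD replicate 6, and the other 15 libraries held 26.6 to 39.5 CPM. Zfp189 was lowest in AD replicate 6 at 20 CPM and in ET replicate 1 at 22.8 CPM, and highest in PF replicate 3 at 48 CPM. The same ET replicate 1 and AD replicate 6 had the lowest Prox1 of all libraries, at 8.4 and 18.6 CPM. Not all hippocampal markers followed, since C1ql2 was lowest in PF animal 11f5 at 18.6 CPM.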
